A study of Mus musculus with 9 samples.

Results

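CUT&RUN peak calls for tagged MyoD1 were examined at 10 genes of the Wnt pathway: the ligands Wnt7a and Wnt4, the receptor Fzd7, Rspo3 and Lgr5 of the R-spondin branch, the effector Ctnnb1, the nuclear partners Lef1, Tcf7 and Tcf7l2, and the feedback target Axin2. A peak was assigned to a gene when it overlapped the gene body (mm10, GENCODE M21) or the 10 kb on either side of it, with 75 kb on either side for Axin2. Peaks of the 6 libraries that overlapped or touched were merged, which gave 62 regions at these genes among 58309 in the genome. In CUT&RUN an antibody directs a nuclease to a chromatin protein, and the DNA cut free around that protein is sequenced. The antibody was M2 anti-Flag, and binding was mapped in the mouse myoblast line C2C12.

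All 6 libraries came from a single edited clone, C2C12 MyoD1::Halo + iMyoD1. Its endogenous Myod1 gene carries an N-terminal 3xFlag-Halo tag, and it also holds a transgene for 3xFlag-Halo-MyoD1 that a TRE3G promoter switches on with doxycycline (dox). The 3 no dox libraries (endogenous MyoD1 levels) and the 3 +dox libraries (elevated MyoD1 levels) were collected 6 h after the change to differentiation medium, without or with dox. Dox raises MyoD1 in only a fraction of the nuclei of such a culture, so each +dox library mixed induced and uninduced cells. The 3 libraries of untagged wild-type C2C12 were not analysed here, so no background from untagged cells stands beside the calls. The labels name the libraries of a group as biological replicates.

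Wnt ligands bind Frizzled receptors and their LRP co-receptors at the cell surface, which stops a cytoplasmic complex built on Axin and APC from marking beta-catenin for destruction. Stabilised beta-catenin enters the nucleus and joins the TCF/LEF proteins on DNA, and Axin2 is a common target that feeds back on the pathway. In muscle, Wnt signalling takes part in the start of myogenesis in the embryo and in the behaviour of satellite cells, the stem cells of adult muscle.

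Sequences are shown first for the regions called in all 3 +dox libraries alone or in all 6 libraries, except the Tcf7l2 promoter region, whose stretch touches a UTR. They were chosen by this pattern of calls and not by height, and each spans 300 bases around the median position of the maxima of the libraries, read on the plus strand of GRCm38 (mm10). Capitals mark the motifs searched on both strands, which were CAGCTG (the E-box preferred by MyoD1), CAGGTG (another E-box), CTTTGAT (the TCF/LEF element) and TGANTCA (the AP-1 element). The first sequence is the intergenic region downstream of Axin2 at chr11:108980676-108980975, which was called with dox and not without it. The others had a call in all 6 libraries: the Wnt4 intron at chr4:137287263-137287562, the sequence upstream of Fzd7 at chr1:59481926-59482225 and an intron near the start of Lgr5 at chr10:115586388-115586687.
Axin2 downstream region: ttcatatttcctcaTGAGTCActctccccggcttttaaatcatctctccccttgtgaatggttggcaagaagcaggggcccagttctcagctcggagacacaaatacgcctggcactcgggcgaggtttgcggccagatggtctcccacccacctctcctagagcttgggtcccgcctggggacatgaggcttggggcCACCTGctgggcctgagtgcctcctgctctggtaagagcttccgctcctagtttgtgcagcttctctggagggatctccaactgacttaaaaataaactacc
Wnt4 intron region: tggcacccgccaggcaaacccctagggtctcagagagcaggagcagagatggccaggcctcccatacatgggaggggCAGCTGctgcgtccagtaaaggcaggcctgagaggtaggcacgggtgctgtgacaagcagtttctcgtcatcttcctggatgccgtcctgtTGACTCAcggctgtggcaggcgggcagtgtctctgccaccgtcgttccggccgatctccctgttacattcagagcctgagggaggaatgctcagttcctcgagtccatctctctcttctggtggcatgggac
Fzd7 upstream region: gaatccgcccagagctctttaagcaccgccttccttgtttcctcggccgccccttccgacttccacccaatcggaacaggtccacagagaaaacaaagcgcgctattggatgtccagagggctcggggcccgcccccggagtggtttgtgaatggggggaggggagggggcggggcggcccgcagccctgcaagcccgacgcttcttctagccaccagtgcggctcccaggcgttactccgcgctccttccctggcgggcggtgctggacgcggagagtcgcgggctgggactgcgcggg
Lgr5 intron region: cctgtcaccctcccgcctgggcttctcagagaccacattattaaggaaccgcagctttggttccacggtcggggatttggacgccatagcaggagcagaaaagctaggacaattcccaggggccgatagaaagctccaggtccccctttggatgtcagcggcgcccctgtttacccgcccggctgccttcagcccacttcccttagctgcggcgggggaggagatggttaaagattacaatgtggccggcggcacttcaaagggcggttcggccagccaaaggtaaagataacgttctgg

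The Axin2 sequence held 1 CAGGTG E-box, read from the minus strand as CACCTG at bases 199 to 204, and 1 AP-1 element at bases 15 to 21. The Wnt4 sequence held 1 CAGCTG E-box at bases 78 to 83 and 1 AP-1 element at bases 169 to 175. The Fzd7 and Lgr5 stretches held no match to any of the 4 motifs. Positions are counted from the left end of each printed sequence.

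The lists differed in length and depth. Without dox they held between 9389 and 13877 peaks, and with dox 12536, 13260 and 53661 (replicates 1, 2 and 3), at depths between 2868000 alignments (+dox replicate 1) and 8030000 (+dox replicate 3). Among the muscle genes used to check the label, Myod1 had 2 regions called in all 6 libraries, Des and Cdh15 had 1 each, and Myog and Ckm had none. The height of a peak is given here as the percentile of its maximum signal within its own list, so 90 marks a peak higher than about 90% of that library's peaks. A region is called a consensus region of a group when at least 2 of the group's 3 libraries had a peak in it.

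At the 10 Wnt genes the longest list also held the most peaks. Their windows held 7, 13 and 14 peaks without dox (replicates 1, 2 and 3) and 13, 10 and 57 peaks with dox. As a share of each list this was 0.0746%, 0.0937% and 0.104% without dox and 0.104%, 0.0754% and 0.106% with dox. The group means were 0.0909% ± 0.0151 without dox and 0.0951% ± 0.0171 with dox (SD, n = 3 each), a difference of 0.00422 percentage points that was smaller than either SD. The sign of this difference turned when any of no dox replicate 1, +dox replicate 1 or +dox replicate 3 was left out, and it was -0.00355 when all lists were shortened to the 9389 peaks with the strongest total signal.

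**Figure D1:**
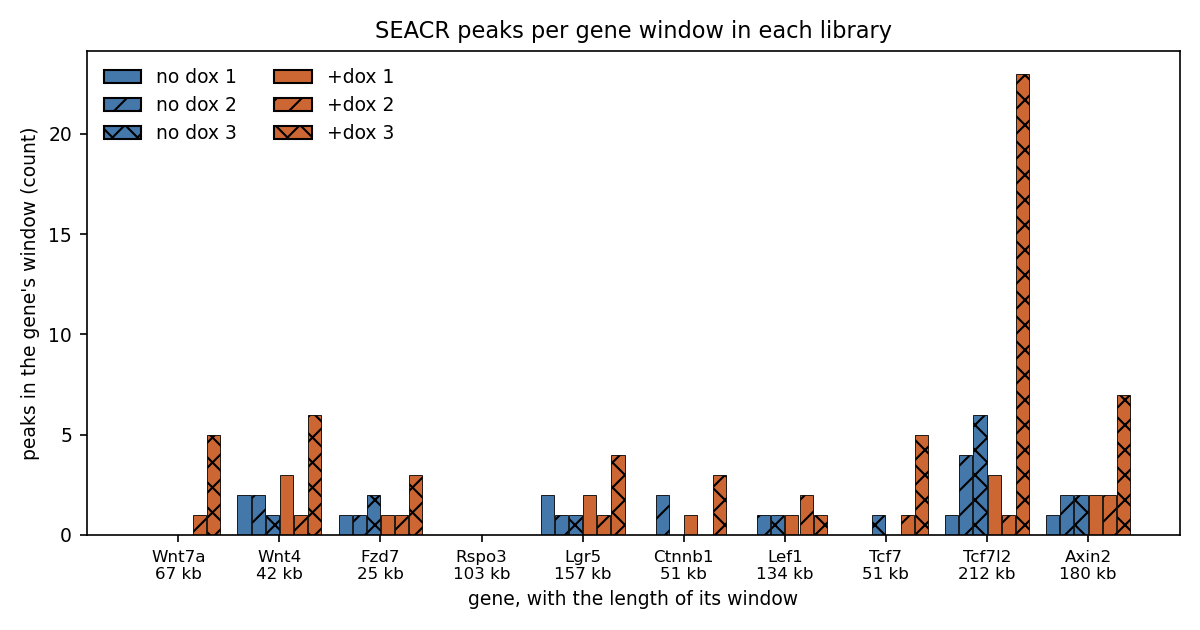
Bars give the number of peaks (vertical axis, count) in the window of each Wnt gene (horizontal axis, with the window's length in kb) for the 3 no dox libraries in blue and the 3 +dox libraries in orange. The bar of +dox replicate 3 is the highest at each gene with a peak except Lef1, Tcf7l2 reaches 23 peaks in that library, and Rspo3 has no bar.

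No gene separated the groups by its number of peaks. The exact two-sided permutation p for the 10 genes lay between 0.4 and 1, where 0.1 is the smallest value that 3 against 3 libraries can give. Counted within 10 kb of the gene body, the groups did not overlap at 0 of the 10 genes, beside 3.11% of the 21768 protein-coding genes with more peaks with dox and 0.00919% with fewer. Of the 62 regions, 36 had a peak in +dox replicate 3 alone (58.1%), and the same held for 59.2% of all merged regions. Percentiles of these 36 within that list ran from 4.90 to 70.8, with a median of 31.8.

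Among the 62 regions, 13 were consensus regions of at least 1 group. The +dox consensus alone held 5 of them (8.06%, beside 9.14% of all merged regions), the no dox consensus alone held 2 (3.23% beside 1.65%), and both held 6 (9.68% beside 14.5%). A call in all 6 libraries was found for 4 regions (6.45% beside 8.3%). A call in all 3 +dox libraries and in none without dox was found for 1 region (1.61% beside 1.09%), and the opposite pattern for 0 regions (0.00858% of all). The region called with dox alone lay in the 75 kb window of Axin2, which was set with it already known. Its share is therefore a description. With 10 kb for every gene this pattern held for 0 regions, and the +dox consensus alone held 4. Without +dox replicate 3, a +dox consensus region needed a call in both +dox replicates 1 and 2. The 5 regions of the +dox consensus alone then became 2, at Axin2 and Lef1. With lists of equal length they became 2, at Axin2 and Tcf7.

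**Figure D2:**
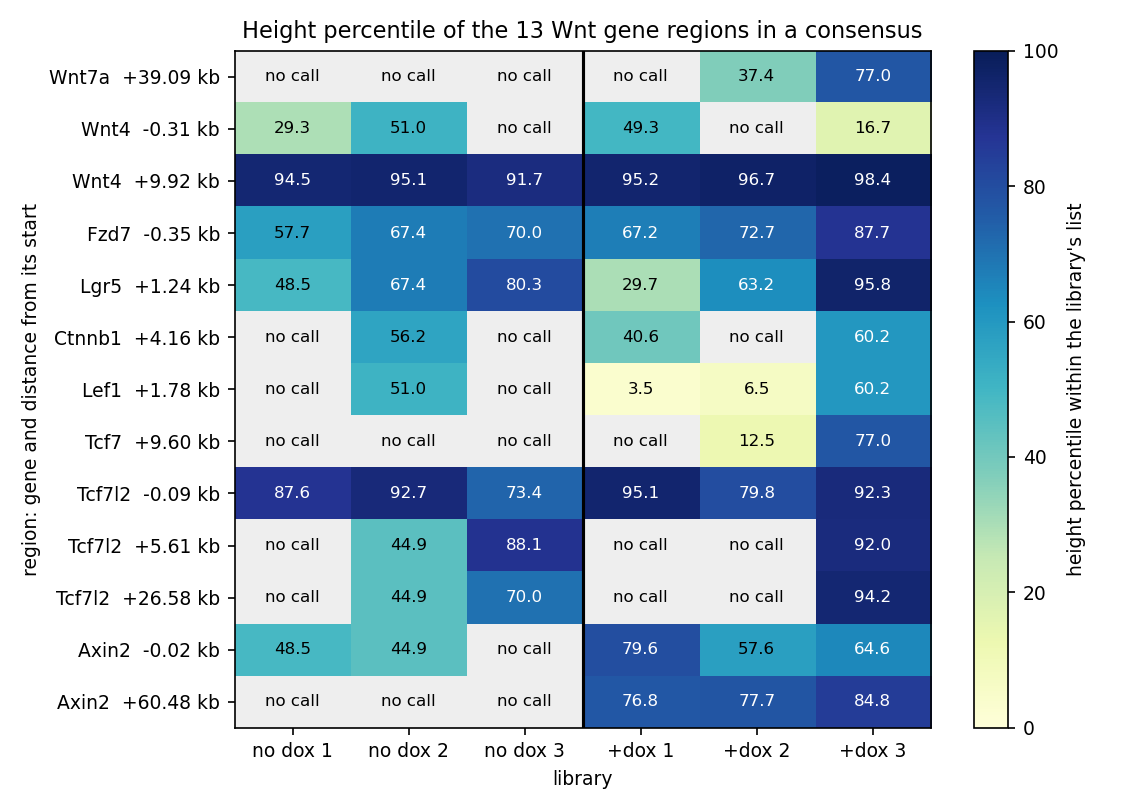
Each row is 1 of the 13 consensus regions, named by its gene and the distance in kb of its maximum from the gene's start, and each column is 1 library. Colour and number give the height percentile within that library's list, and grey cells had no call. The Wnt4 intron region (9924 bp) lies between 91.7 and 98.4 in all 6 libraries, and the distant Axin2 region (60477 bp) has calls on the +dox side alone.

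Of the ligands, Wnt4 had the highest-ranked region of the 10 genes. Wnt4 is a secreted ligand known from kidney, gonad and muscle development. Its intron region (chromosome 4, 137285601 to 137288750, with the maximum 9924 bp from the start) had percentiles of 94.5, 95.1 and 91.7 in no dox replicates 1, 2 and 3 and of 95.2, 96.7 and 98.4 in +dox replicates 1, 2 and 3. The maximum rested on 104, 110 and 52 alignments without dox and on 160, 188 and 226 with dox. All 3 +dox percentiles lay above all 3 no dox percentiles, with means of 93.8 ± 1.80 and 96.8 ± 1.60 (SD, n = 3 each, exact two-sided permutation p = 0.1, the smallest possible). Such a separation with higher values under dox was found in 23.7% of the 4838 regions called in all 6 libraries, and a separation with lower values in 0.0413%, so 1 of the 4 Wnt gene regions is near the background. With lists of equal length the percentiles were 94.5, 92.7 and 88.2 without dox and 93.6, 95.4 and 90.8 with dox, and the groups overlapped.

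A Wnt4 promoter region, with its maximum 313 bp upstream of the start (chromosome 4, 137276651 to 137278000), was lower and less regular. Percentiles were 29.3 and 51.0 in no dox replicates 1 and 2 and 49.3 and 16.7 in +dox replicates 1 and 3, with no call in the remaining libraries. It was in the consensus of each group, and the values of the groups overlapped. The other 4 regions at Wnt4 had a call in +dox replicate 3 alone.

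Wnt7a, a ligand known to act on satellite cells and muscle growth, had 0 peaks in each no dox library, and 0, 1 and 5 in the +dox libraries in order of replicate. Its only consensus region lay in an intron (chromosome 6, 91372101 to 91373250) with percentiles of 37.4 in +dox replicate 2 and 77.0 in +dox replicate 3 and the same position of the maximum in each. It had 20 and 28 alignments at the maximum, and it was not a consensus region without +dox replicate 3. With lists of equal length it had no call in any library.

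Fzd7, a Frizzled receptor for Wnt7a in muscle stem cells, carried a region just upstream of its start in every library. The region (chromosome 1, 59481251 to 59482900, maximum 348 bp upstream) had percentiles of 57.7, 67.4 and 70.0 in no dox replicates 1, 2 and 3 and of 67.2, 72.7 and 87.7 in +dox replicates 1, 2 and 3. Means were 65.0 ± 6.51 and 75.8 ± 10.6 (SD, n = 3 each), the ranges overlapped, and the exact two-sided permutation p was 0.3. Within same-numbered pairs the +dox percentile was higher in 3 of 3, by 9.53, 5.25 and 17.7 points. With the full lists, a rise in 3 of 3 pairs was found at Fzd7 and Wnt4 among the 4 Wnt gene regions, beside 35.7% of all 4838 regions called in all 6 libraries. With lists of equal length the Fzd7 percentiles were 57.7, 52.3 and 57.3 in no dox replicates 1, 2 and 3. In +dox replicates 1, 2 and 3 they were 56.2, 61.4 and 32.1, a difference in means of -5.83 points. Neither Fzd7 nor Wnt4 then rose in every pair. The only CAGCTG of the Fzd7 region lay 854 bp from the maximum, outside the printed sequence.

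In the R-spondin branch, Lgr5 had a region called in every library and Rspo3 had none. Rspo3, a secreted amplifier of Wnt signalling, had 0 peaks in all 6 libraries over a window of 103 kb, the only gene of the 10 without a region. Lgr5, an R-spondin receptor known as a stem cell marker, had a region in an intron, 1242 bp from the start of the gene and 955 bp from the nearest start of an Lgr5 transcript (chromosome 10, 115585401 to 115588100). Its percentiles were 48.5, 67.4 and 80.3 in no dox replicates 1, 2 and 3 and 29.7, 63.2 and 95.8 in +dox replicates 1, 2 and 3. The +dox values were at once the lowest and the highest of the 6, and the groups overlapped fully (65.4 ± 16.0 and 62.9 ± 33.1, SD, n = 3 each, exact two-sided permutation p = 0.9).

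Ctnnb1 encodes beta-catenin, the effector of the pathway. Its single consensus region (chromosome 9, 120932901 to 120933600) lay 4160 bp from the start of the gene and 24 bp from the start of an annotated Ctnnb1 transcript. It had percentiles of 56.2 in no dox replicate 2 and of 40.6 and 60.2 in +dox replicates 1 and 3, with 22, 20 and 16 alignments at the maximum. The no dox value lay between the +dox values, so the place of this region in the +dox consensus alone rested on 1 more library with a call. With lists of equal length it had a call in 1 no dox library and in 0 +dox libraries.

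Among the nuclear partners of beta-catenin, Tcf7l2 had the most regions and a promoter called throughout. Tcf7l2 encodes TCF4, a TCF/LEF protein. The region at its start (chromosome 19, 55740501 to 55742250, maximum 94 bp upstream) had percentiles of 87.6, 92.7 and 73.4 in no dox replicates 1, 2 and 3 and of 95.1, 79.8 and 92.3 in +dox replicates 1, 2 and 3. The highest value was in +dox replicate 1 and the lowest in no dox replicate 3, but the ranges overlapped (84.6 ± 10.003 and 89.0 ± 8.15, SD, n = 3 each, exact two-sided permutation p = 0.6).

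Further into Tcf7l2, calls fell mostly in the libraries numbered replicate 3. Intron regions with maxima 5606 and 26581 bp from the start were the only ones of the 62 in the no dox consensus alone. The first had percentiles of 44.9 and 88.1 in no dox replicates 2 and 3 and of 92.0 in +dox replicate 3, and the second had 44.9, 70.0 and 94.2 in the same libraries. Each was thus also high in 1 +dox library and had no call in +dox replicates 1 and 2. Regions called in both replicate 3 libraries and in no other numbered 6 of the 62 (9.68%, beside 4.13% of all merged regions), of which 3 were at Tcf7l2 and 1 each at Axin2, Tcf7 and Fzd7. This pattern was singled out after the values were seen. The same pattern for replicate 1 and for replicate 2 held for 0 of the 62 regions each, beside 0.0703% and 0.12% of all.

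**Figure D3:**
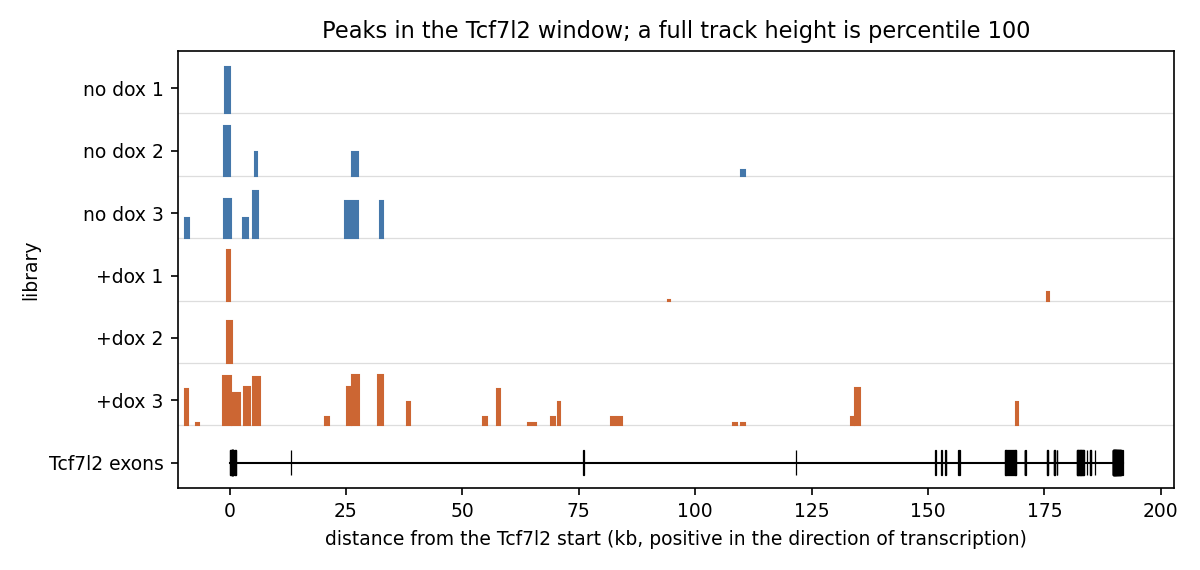
Peaks of each library over the Tcf7l2 window, with the distance from the gene's start in kb on the horizontal axis, 1 track for each library and the exons at the bottom, and bar height as the height percentile. The peak at the start is present in all 6 tracks. No dox replicate 3 and +dox replicate 3 share the peaks at -9119, 3656, 5606, 26581 and 32743 bp.

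Lef1 and Tcf7 had few calls. Lef1, a TCF/LEF protein, had a region in an intron (chromosome 3, 131110901 to 131112650) with percentiles of 51.0 in no dox replicate 2 and of 3.50, 6.48 and 60.2 in +dox replicates 1, 2 and 3. It was called in all 3 +dox libraries, yet 2 of these calls were among the lowest peaks of their lists, with 8 and 10 alignments at the maximum. With lists of equal length it had a call in 1 no dox library and in 0 +dox libraries. Tcf7, which encodes TCF1, had a region in an intron (chromosome 11, 52272501 to 52273950) with percentiles of 12.5 and 77.0 in +dox replicates 2 and 3 and no other call, and it left the consensus without +dox replicate 3.

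Axin2, the feedback target, had a promoter region and a distant region that differed in their calls. The promoter region (chromosome 11, 108920001 to 108921600, maximum 23 bp upstream of the start) had percentiles of 48.5 and 44.9 in no dox replicates 1 and 2, no call in no dox replicate 3, and 79.6, 57.6 and 64.6 in +dox replicates 1, 2 and 3. The +dox percentiles lay above both no dox percentiles, but the maximum signals overlapped. These were 5.12 and 4.06 CPM in no dox replicates 1 and 2 and 20.2, 8.34 and 2.24 CPM in +dox replicates 1, 2 and 3. The lowest signal was thus in +dox replicate 3, whose percentile was taken within the longest list, of 53661 peaks. A separation of the percentiles was found in 23.7% of regions called in all 6 libraries, which is not the share for a region with an absent call. No exact test was made because 1 value was absent. With lists of equal length the region was called in 2 libraries of each group. Maxima rested on 22 and 18 alignments without dox and on 58, 30 and 18 with dox.

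The distant Axin2 region (chromosome 11, 108980251 to 108981950) was the only one of the 62 called in all 3 +dox libraries and in none without dox. Percentiles in +dox replicates 1, 2 and 3 were 76.8, 77.7 and 84.8, with 52, 52 and 42 alignments at a maximum that fell on the same position in all 3. Its total signal was 2737, 2558 and 1669 in +dox replicates 1, 2 and 3. The maximum lay 60477 bp downstream of the Axin2 start between genes, 37205 bp from the nearest start of a coding transcript, also of Axin2, and 26825 bp from the pseudogene Gm11668. The region held no CAGCTG. The window of 75 kb was set with this region already known from earlier results, and with 10 kb it was not counted, so its call pattern is a description. With lists of equal length it had a call in 2 of the 3 +dox libraries and in none without dox. The absence of a call is not a measure of signal, since the lists hold called peaks alone.

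**Figure D4:**
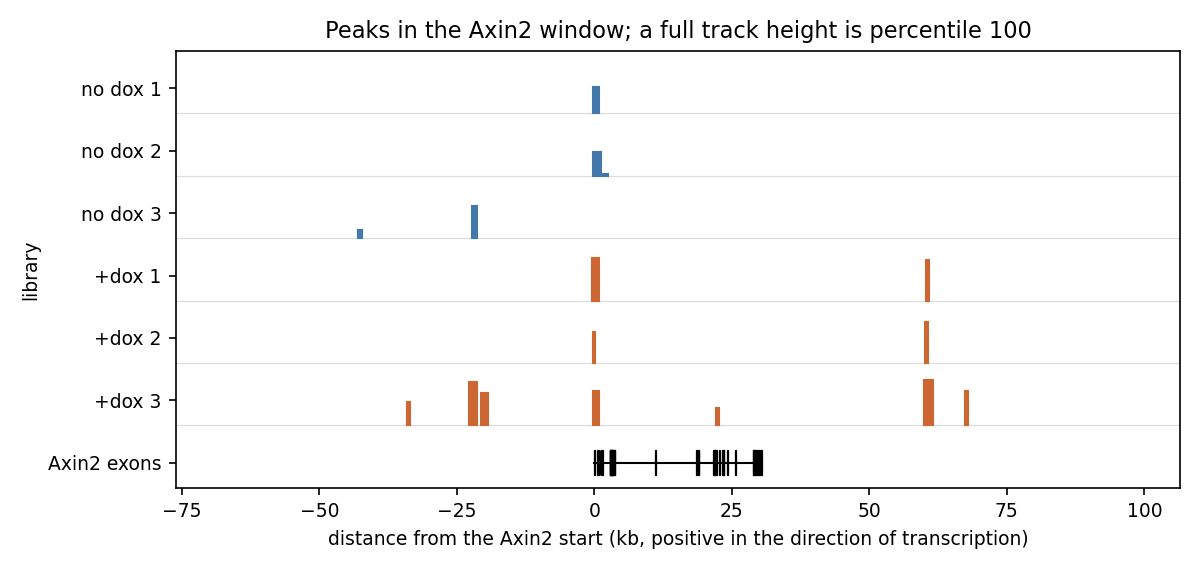
Peaks of each library over the Axin2 window, with the distance from the gene's start in kb on the horizontal axis, 1 track for each library and the exons at the bottom, and bar height as the height percentile. Peaks at the start appear in no dox replicates 1 and 2 and in all +dox tracks, and the peak near 60 kb appears in the 3 +dox tracks alone.

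Signal heights were compared with limma for the 4 regions called in all 6 libraries, with each library centred on its median over all 4838 such regions. The log2 difference of the maximum signal, +dox minus no dox, was -0.09 ± 0.38 at Fzd7 (95% interval -0.93 to 0.75), -0.28 ± 0.55 at Lgr5 (-1.51 to 0.95), -0.11 ± 0.55 at Tcf7l2 (-1.34 to 1.12) and 0.28 ± 0.36 at Wnt4 (-0.51 to 1.07), where the error is the SE. The limma adjusted p over all 4838 regions was 0.984 at Lgr5 and Wnt4, 0.990 at Fzd7 and 0.991 at Tcf7l2. In the genome 0 of 4838 regions (0%) passed an adjusted p of 0.05 in limma, with 124 at an unadjusted p under 0.05, none of them at a Wnt gene. Without centring, the median over all 4838 regions was 0.91 higher with dox, and the Wnt gene regions were 0.84 (Fzd7), 0.65 (Lgr5), 0.82 (Tcf7l2) and 1.21 (Wnt4) higher. Relative to that shift the differences at Fzd7, Lgr5 and Tcf7l2 were below 0 and that at Wnt4 above it, and every centred interval includes 0. Centring removes any rise shared by all regions. Without it, the interval at Wnt4 was 0.0147 to 2.40 (limma unadjusted p = 0.0475, adjusted p = 0.208). Those at Fzd7, Lgr5 and Tcf7l2 included 0. An unadjusted limma p under 0.05 was then found for 1158 of all 4838 regions, and 0 passed an adjusted p of 0.05. Over the alternatives with centring, the difference at Wnt4 ran from 0.14 to 0.47, while those at Fzd7 (-0.50 to 0.11), Lgr5 (-0.82 to 0.26) and Tcf7l2 (-0.67 to 0.25) took either sign.

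Over these 4 regions the median difference in height percentile was 3.75 points, beside 6.40 points over all 4838 regions. With lists of equal length these medians were -5.93 and -1.04 points, so the sign turned at the Wnt genes and over all regions alike. By region, the difference went from 10.8 to -5.83 points at Fzd7 and from 4.49 to -6.03 points at Tcf7l2. It stayed negative at Lgr5 (-2.49 and -11.6 points) and positive at Wnt4 (3.01 and 1.47 points).

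**Figure D5:**
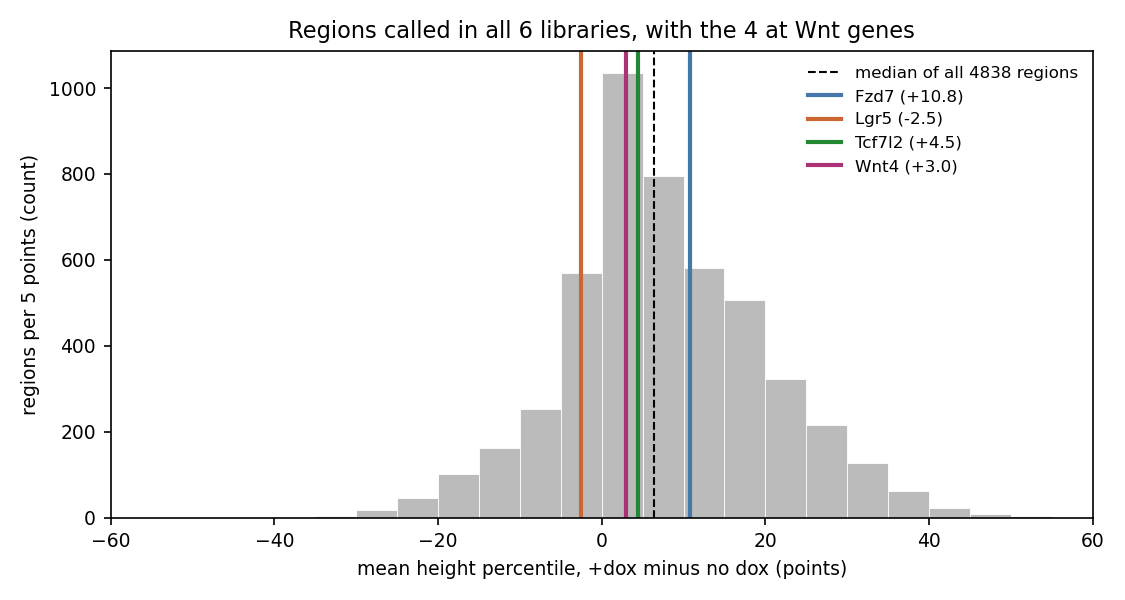
Grey bars count the 4838 regions called in all 6 libraries (vertical axis) by their difference in mean height percentile, +dox minus no dox, in points (horizontal axis). Coloured lines mark the Wnt gene regions at Fzd7 (10.8), Lgr5 (-2.49), Tcf7l2 (4.49) and Wnt4 (3.01), and the dashed line marks the median of all regions (6.40). The 4 lines lie in the dense middle of the distribution.

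Sequence motifs occurred in the Wnt gene regions about as often as elsewhere. CAGCTG was found in 42 of the 62 regions extended by 100 bp on each side (67.7%, 95% Wilson interval 55.4 to 78.0), beside 64.1% of all merged regions. Within 100 bp of the maximum it was found in 25.8% (16.6 to 37.9), beside 29.4%. CAGGTG was found in 62.9% of the extended regions beside 66.0%, the TCF/LEF element CTTTGAT in 19.4% (11.4 to 30.9) beside 14.0%, and the AP-1 element TGANTCA in 46.8% (34.9 to 59.0) beside 38.1%. The position of a region is the median of the maxima of the libraries that called it, and maxima of different libraries lay up to 900 bp apart in the Tcf7l2 intron region at 26581 bp, 1225 bp at Lef1 and 575 bp at Lgr5. The nearest CAGCTG was 38 bp from that point in both Tcf7l2 intron regions and 70 bp in the Wnt4 intron. It was 710 bp or more away in the regions at Tcf7l2, Fzd7 and Lgr5 called in all 6 libraries. A match is no proof of a bound site, and intervals cover counting error only.

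By position, 38 of the 62 regions had their maximum in an intron, 18 between genes and 6 in an exon, and 7 lay within 1 kb of the start of their gene. The Wnt gene windows held 60.6 merged regions per Mb, beside 35.0 per Mb over the windows of all protein-coding genes. For consensus regions the densities were 12.7 and 9.81 per Mb. Tcf7l2 and Axin2 have the longest windows and enter these values unequally. Tcf7l2 held 24 of the 62 regions in 211.8 kb, 15 of them called in +dox replicate 3 alone, and Axin2 held 9 in 180.4 kb.

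Within 10 kb of the gene body, 9 of the 10 genes had any region, beside 72.4% of protein-coding genes. A region of the +dox consensus alone lay at 4 genes (25.7% of all), one of both consensus sets at 5 (34.2%), one called in all 6 libraries at 4 (21.9%), and one called in all 3 +dox libraries and in none without dox at 0 (3.79%). The median window of the 10 genes was 59.3 kb, and that of all protein-coding genes was 37.4 kb.

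A list of 74 other genes of the pathway, drawn up by role, gave the surroundings. Any region lay at 70 of the 74, a region called in all 6 libraries at 25, a region of the +dox consensus alone at 31, and one called in all 3 +dox libraries and in none without dox at 5. The same patterns held for 72.4%, 21.9%, 25.7% and 3.79% of all protein-coding genes, in that order. By role, a region called in all 6 libraries lay at 5 of 17 ligands, 4 of 14 receptors, 1 of 7 genes of the R-spondin branch, 1 of 13 secreted or membrane inhibitors, 7 of 13 cytoplasmic components and 7 of 10 nuclear components, beside 21.9% of all protein-coding genes, and differences between roles were not tested. The median window of the 74 genes was 50.4 kb, beside 37.4 kb for all protein-coding genes, and its part in these counts was not tested.

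The 5 genes with a region called with dox alone were Apc, a scaffold of the destruction complex, Dvl2 and Dvl3, which relay the signal from Frizzled receptors, and the ligands Wnt7b and Wnt10b. In +dox replicates 1, 2 and 3 the percentiles were 52.8, 37.4 and 75.3 at Apc, 40.6, 25.7 and 68.0 at Dvl3, and 23.0, 19.0 and 54.0 at Dvl2. Those at Wnt7b were 19.5, 31.9 and 54.0, and those at Wnt10b were 35.5, 0.336 and 16.7. The Dvl3 and Dvl2 regions lay 6 and 19 bp upstream of the gene's start. Those at Apc, Wnt7b and Wnt10b lay 110052, 42647 and 924 bp downstream of it. The Wnt10b region (chromosome 15, 98776251 to 98778100) lay beside a region called in all 6 libraries (98778251 to 98781150). That neighbour had mean percentiles of 80.6 without dox and 84.3 with dox, so the Wnt10b call may be its flank, which was not tested. Mean percentiles in the +dox lists ran from 17.5 at Wnt10b to 55.1 at Apc, beside 79.8 at the distant Axin2 region. The windows differed, since the regions of the wider list were sought within 10 kb of the gene body. The Axin2 region lay in the 75 kb window that was set with it already known, so its higher value is a description.

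Among the 74 other genes, the 5 with the highest mean percentile of a region called in all 6 libraries were as follows. Lrp5, the co-receptor of Frizzled, had an intragenic region 5063 bp from its start with percentiles of 99.7, 99.6 and 98.8 in no dox replicates 1, 2 and 3 and of 99.8, 99.7 and 99.8 in +dox replicates 1, 2 and 3, a mean of 99.6. Next were the ligand Wnt9a with a mean of 97.9, the Dickkopf receptor Kremen1 with 95.5, the co-repressor Tle4 with 89.6 and the TCF/LEF protein Tcf7l1 with 89.2. These 5 genes were picked as the highest by this measure, so the order is a description. The Wnt4 intron region, with means of 93.8 without dox and 96.8 with dox, ranked above those at Tle4 and Tcf7l1.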

How the data were processed

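The authors mapped reads to mm10 with nf-core/cutandrun, removed blacklisted regions, scaled coverage to CPM and called peaks in each library with SEACR (relaxed). The deposited lists give each peak's total signal (CPM summed per base) and maximum signal, the authors' own values. No control library for calling and no spike-in scale is named in the sources used here. All interval ends lay on a 50 bp grid and 0 peaks passed a GRCm38 chromosome end.

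The members, gene lists, windows and tests were chosen with earlier results of these data known. The rule for named genes took all 10 genes, each consensus region, sequences of the regions called in all 3 +dox libraries alone or in all 6 libraries unless they touched a UTR (Tcf7l2 did), and from the wider list the genes with the first pattern and the 5 highest by mean percentile. Maximum signals were whole multiples (within 0.02 of an alignment) of one step in 100% of peaks, which gave the depth; between 94.8% and 99.2% were even multiples, so alignments may count both mates of a pair and independent fragments be fewer. Regions called in all 6 libraries were tested with limma 3.58.1 in R 4.3.3 (trend, Benjamini-Hochberg over 4838 regions), and single values with exact two-sided permutation tests over 20 assignments of 3 and 3 libraries. Scripts ran under Python 3.11.15 with SciPy 1.17.1 (pandas 2.3.3, NumPy 2.4.6) and were tested on simulated data. For limma, recovery of planted changes was required only at noise below that of these data. At the noise of these data only the size of the estimates was checked. Same-numbered libraries of the groups deviated together over the 4838 regions (r = 0.485, 0.267 and 0.628 for replicates 1, 2 and 3, beside -0.560 to 0.265 for mismatched numbers, so replicate 2 barely exceeded a mismatch). Each was over 0.1, the limit used to take the replicate numbers of the labels as pairs, and a replicate block was an alternative. Mismatches of replicates 1 and 2 also passed this limit (r = 0.265 and 0.219). The limit therefore does not tell the pairs of replicates 1 and 2 from mismatches. Other alternatives left out libraries, equalised list lengths, applied one total signal threshold, and changed merging, windows, consensus rule, rank and motif window.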

Additional observations from a re-analysis of the deposited data

How the results depend on the processing

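Of 130 recomputed values of the main results, 105 stayed within the set limits, 20 moved and 5 changed sign. The 105 include the limma counts of higher and lower Wnt gene regions. Limma called at most 7 regions of the genome under any setting, so those counts had little room to move. The mean paired difference in the share equals the unpaired one by construction. The 105 is thus no measure of robustness. The numbers of regions at the Wnt genes are small, so a single region moves them. Regions in the +dox consensus alone numbered 5, and 2 to 7 without 1 library, 2 with lists of equal length, 3 when 3 of 3 libraries were asked for and 2 with replicates 1 and 2 alone. Regions in the no dox consensus alone numbered 2, and 0 to 3 without 1 library, 0 when 3 of 3 libraries were asked for, 1 with peaks reduced to 250 bp on each side of the maximum and 1 with replicates 1 and 2 alone; without no dox replicate 2 or 3 there were 0. Regions called in all 6 libraries numbered 4, and 9 with 75 kb for every gene. Regions called in all 3 +dox libraries and in none without dox numbered 1, and 1 to 3 without 1 library (3 when +dox replicate 1 and 2 when no dox replicate 2 was left out), 0 at equal list length, 0 with the gene body alone and 0 with 10 kb for every gene. The share of a list's peaks differed by -0.00395 to 0.0141 percentage points without 1 library (-0.00395, -7.80e-05 and -0.00134 when no dox replicate 1, +dox replicate 1 and +dox replicate 3 were left out) and by -0.00355 at equal list length. The median difference in height percentile was 2.54 to 8.95 points without 1 library and -5.93 with lists of equal length. CAGCTG was found in 53.8% to 68.3% of regions without 1 library, the lowest without +dox replicate 3, in 50.8% with 250 bp windows, in 25.8% within 100 bp of the maximum, and in 87.1% when CAGGTG also counted. With 1 library of a group left out, a consensus still asked for 2 libraries, so each remaining library of that group needed a call. The same held with replicates 1 and 2 alone. Patterns over all libraries of a group were likewise asked of the remaining libraries only. These counts thus follow a changed rule as well as a changed set of libraries. Other causes of these changes were not tested.

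With limma, 0 of the Wnt gene regions were higher and 0 lower under every alternative run. With the replicate block, 1 of all 4838 regions was called lower and 627 had an unadjusted p under 0.05, and 0 of the 4 Wnt gene regions were called. The mean of the paired differences in the share was 0.00422 percentage points. The median paired difference in percentile was 4.09, -1.29 and 16.6 points in replicates 1, 2 and 3, with a mean of 6.47. This is a mean of medians, and the 3.75 points of the main result are a median of differences in means. The gap between 3.75 and 6.47 is thus no measure of the pairing. At the Wnt gene regions the pairing changed no call. With 3 libraries a group, intervals of the fold at these regions are wide.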
